A study of Mus musculus with 12 samples.

Results

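Transcripts of 10 genes of the BAFF receptor and noncanonical NF-κB pathway were described in B cells of the Peyer's patches (PP) of mice after stroke or sham surgery. The members were listed by name: the receptors Tnfrsf13b, Tnfrsf13c, Tnfrsf17 and Cd40, the adaptors Traf2 and Traf3, the ubiquitin ligase Birc3, the kinase Map3k14 and the transcription factor genes Nfkb2 and Relb. All 10 were among the 36175 genes of the deposited table. They were chosen by name and role, with earlier results of these data known. Whether PP B cells held other levels of these transcripts early after a brain lesion was the question addressed.

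The samples came from 12 male C57BL/6JHsd wild-type mice aged 10 to 12 weeks, 6 in each group. Ischemic brain injury was induced by transient occlusion of the middle cerebral artery for 1 h followed by reperfusion, and sham controls had the filament inserted and withdrawn at once with the same pain relief. PP B cells were taken 18 h after surgery by negative magnetic selection and a later CD45 selection, and total RNA of each mouse was sequenced as 1 library. A bulk library of this kind cannot tell fewer cells of a type from less RNA per cell. The value of each gene is a normalized TPM, which is a transcript level per length, so levels of different genes may be set side by side.

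BAFF (encoded by Tnfsf13b) and APRIL (Tnfsf13) are survival factors of the B lineage. BAFF-R binds BAFF and keeps mature B cells alive, TACI binds both ligands and takes part in class switching to IgA, and BCMA sustains plasma cells. In a resting B cell, TRAF3 brings the kinase NIK (encoded by Map3k14) to a complex of TRAF2 and cIAP ligases, which marks NIK for degradation. Engaged BAFF-R or CD40 draws TRAF3 away, NIK accumulates and activates IKKα, and the precursor protein of Nfkb2 is trimmed to the subunit that enters the nucleus with RelB.

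Promoter sequence is shown for Traf3, Nfkb2 and Map3k14, which were chosen by the outcomes in the sections that follow. Nfkb2 had the largest log2 fold change of a tested member in the values as deposited. Map3k14 and Traf3 formed the ratio with the largest difference, and Nfkb2 and Traf3 had the closest relation. Windows of 250 bases before a transcription start were taken from RefSeq (mouse GRCm38.p6), and 8 of the 10 members had at least 1 window, 10 windows in all, with 3 for Nfkb2. The κB consensus, the degenerate motif bound by NF-κB dimers, was searched on both strands. It occurred in 3.90% of all 32851 windows, in those of Nfkb2 and Traf3, and in those of 6 other members not at all. Capitals mark the match. A match is a description of the letters and not a measured binding site.

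The Traf3 window lies at chr12:111166120-111166369 on the plus strand, directly before the gene (chr12:111166370-111267153). Its match covers the last 10 bases before the start, and 85.2% of the window is G or C.
Traf3 promoter: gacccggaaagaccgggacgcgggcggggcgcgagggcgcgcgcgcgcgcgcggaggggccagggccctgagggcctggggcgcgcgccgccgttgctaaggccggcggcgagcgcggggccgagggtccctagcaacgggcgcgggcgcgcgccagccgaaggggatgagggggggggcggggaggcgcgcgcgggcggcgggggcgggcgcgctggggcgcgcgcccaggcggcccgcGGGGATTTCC

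Nfkb2 (chr19:46304320-46312385, plus strand) has alternative starts, and all 3 of its windows held a match. The stretches below run from chr19:46304693-46304713, chr19:46304721-46304736, chr19:46305454-46305473 and chr19:46305700-46305719. In stretch a 2 matches overlap.
Nfkb2 stretch a: gtcacGGGAATTCCCCccctc
Nfkb2 stretch b: cgaaaGGGGCTTTCCc
Nfkb2 stretch c: cggcaGGAATGTCCCcacaa
Nfkb2 stretch d: ttttcGGGACTTTCCtaagc

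Map3k14 lies on the minus strand (chr11:103219762-103267472). The 179 bases upstream of its annotated end, chr11:103267473-103267651, held no match to the κB consensus, which says only that these letters are not in this window.
Map3k14 upstream: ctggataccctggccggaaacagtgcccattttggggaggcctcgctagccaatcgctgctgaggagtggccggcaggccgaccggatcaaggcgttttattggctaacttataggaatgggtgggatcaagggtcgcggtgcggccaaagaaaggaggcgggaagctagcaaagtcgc

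Before the members were compared, the libraries were examined. Column sums ranged from 559570 to 1404340 and were lowest in sham control 6. The 10 B cell markers were present in every mouse, with a summed level of 3041 to 3983 in sham controls and 1891 to 3542 in stroke mice, and the 1891 belonged to stroke mouse 5. Sham control 6 and stroke mouse 5 also received the lowest sample quality weights in limma, 0.274 and 0.305. Summed epithelial markers ranged from 10.7 to 1460 in sham controls and from 12.9 to 707 in stroke mice, and summed T cell markers from 49.4 to 128 and from 41.8 to 153. Their part in the results was not tested.

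Among the members, Birc3 had the highest transcript level and Tnfrsf17 the lowest. The median over 12 mice was 385 normalized TPM for Birc3, 220 for Tnfrsf13c, 157 for Tnfrsf13b, 114 for Cd40 and 88.7 for Traf3. Nfkb2 followed with 61.3, Relb with 41.5, Map3k14 with 34.9, Traf2 with 24.5 and Tnfrsf17 with 0.483. Each gene of this order exceeded the next one in 10 to 12 of the 12 mice, yet the ranges of neighbours overlapped except between Birc3 and Tnfrsf13c and between Traf2 and Tnfrsf17. Of the 9 members other than Tnfrsf17, Map3k14 varied least among the mice (coefficient of variation 10.1%) and Nfkb2 most (26.2%). Stroke mouse 5 held the lowest value of 5 of these 9 members and sham control 3 the highest value of 5.

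**Figure D1:**
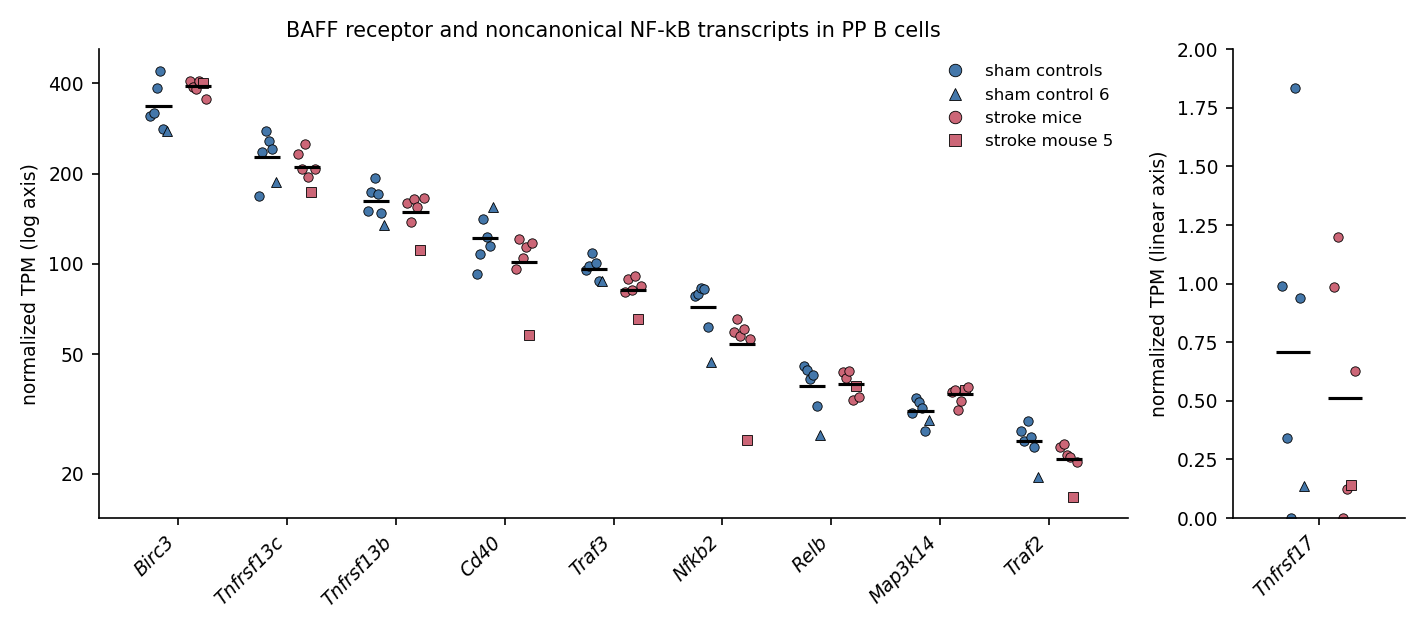
Normalized TPM of the 10 members in PP B cells of 6 sham controls (blue) and 6 stroke mice (red), 1 symbol per mouse, with the mean as a horizontal bar. The left axis is logarithmic and the right axis, for Tnfrsf17, linear. The groups overlap for every member, with 4 stroke mice below the lowest sham control for Traf3 and 4 above the highest for Map3k14.

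No member passed the test across all genes. Of the 10 members, 9 reached 1 normalized TPM in every mouse and entered the limma fit on log2 values with 12590 genes. After Benjamini-Hochberg adjustment over all of them 0 members were called, as were 0% of all genes, and the adjusted p-values ran from 0.791 to 0.950. At an unadjusted limma p under 0.05 there were again 0 members, against 6.12% of all genes tested. The exact permutation test over all assignments of mice to groups, at p under 0.05, picked out 2 members, Traf3 and Map3k14, and 6.76% of all genes, of which 0% held after adjustment over all genes. Groups that did not overlap were seen in 0 members and 0.437% of all genes. The mean log2 level was lower in stroke mice for 6 of the 9 and higher for 3, and the median log2 fold change of the 9 was -0.12 beside 0.0069 for all genes.

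**Figure D2:**
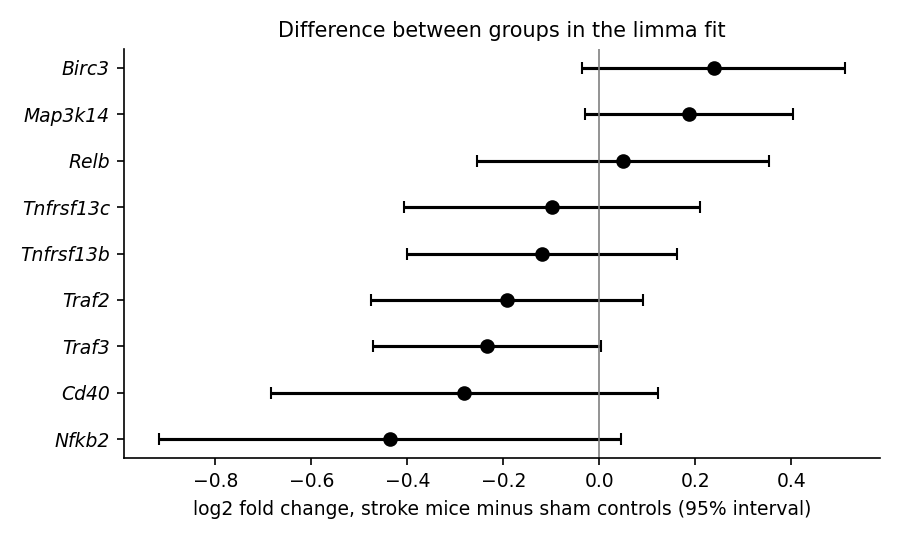
Log2 fold change (stroke minus sham) of the 9 members tested, with the 95% confidence interval of the limma fit as bars, n = 6 mice per group. Every interval includes 0, the one of Traf3 by the smallest margin (-0.47 to 0.003).

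For both BAFF receptors of mature B cells the groups lay close together. Tnfrsf13c, which encodes BAFF-R (chr15:82221743-82224369, minus strand), had 169, 239 and 276 normalized TPM as its lowest, median and highest value in sham controls and 173, 208 and 250 in stroke mice. The range of the stroke mice lay inside that of the sham controls. The means were 228 ± 41.5 and 211 ± 27.1 (SD, n = 6 each), a log2 fold change of -0.10 (SE 0.14, 95% interval -0.41 to 0.21, limma adjusted p = 0.895).

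Tnfrsf13b, which encodes TACI (chr11:61126755-61149372, plus strand), had values of 135, 160 and 193 in sham controls and of 112, 157 and 166 in stroke mice. Only stroke mouse 5 fell below all sham controls, and 3 sham controls lay above all stroke mice. The means were 162 ± 21.0 and 149 ± 20.9, with a log2 fold change of -0.12 (SE 0.13, 95% interval -0.40 to 0.16, limma adjusted p = 0.867). For both receptors the sign depended on scaling, and in the values scaled to a common total the difference was 0.03 for Tnfrsf13c and 0.0074 for Tnfrsf13b. That scaling moved the median of all genes to 0.12. Relative to the median of all genes, Tnfrsf13b lay between -0.17 and -0.06 and Tnfrsf13c between -0.21 and -0.05 over all settings tried. The log2 fold change was -0.04 for each without stroke mouse 5, and for Tnfrsf13c it was -0.18 without sham control 1 and -0.04 without sham control 3. Neither interval is narrow enough to show equal levels.

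Tnfrsf17, which encodes the plasma cell receptor BCMA (chr16:11313812-11320074, plus strand), was near the floor of the data. It was listed at 0 in sham control 3 and stroke mouse 3, had a median of 0.640 in sham controls and 0.384 in stroke mice, and reached at most 1.83 and 1.20. It therefore did not pass the filter on low values, and the exact permutation test of its log2 values gave p = 0.636. The plasma cell markers were more abundant, from Sdc1 with 2.79 to 12.0 over all mice up to Jchain, the joining chain of IgA and IgM. Jchain had 585 ± 309 in sham controls and 426 ± 184 in stroke mice (SD, n = 6 each). Its log2 fold change of -0.27 was -0.04 without stroke mouse 5 and -0.76 without sham control 6. Of the 8 plasma cell markers, 5 had a negative and 3 a positive log2 fold change. Without read counts the depth behind a value this low is unknown, so a difference in Tnfrsf17 could not be resolved here.

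Cd40, the receptor for T cell help (chr2:165055627-165072948, plus strand), ranged from 92.6 to 154 with a median of 119 in sham controls and from 57.9 to 121 with a median of 109 in stroke mice. All 6 stroke mice lay below the sham mean, and the lowest value was that of stroke mouse 5. The means were 122 ± 22.3 and 101.8 ± 23.4 (log2 fold change -0.28, SE 0.19, limma adjusted p = 0.801), and without stroke mouse 5 the log2 fold change was -0.13. It was -0.01 in the scaling to B cell markers.

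Of the adaptors, Traf3 had the larger mean difference between the groups. Its lowest, median and highest values were 87.7, 96.6 and 109 normalized TPM in sham controls and 65.4, 83.2 and 90.9 in stroke mice. All 6 stroke mice lay below the sham mean and 4 of them below the lowest sham control, so that only stroke mice 2 and 4 overlapped with the sham range. The means were 96.4 ± 8.08 and 82.1 ± 9.14 (SD, n = 6 each), with a log2 fold change of -0.23 (SE 0.11, 95% interval -0.47 to 0.003). The limma p was 0.0524 (adjusted p = 0.791) and the exact permutation p 0.0130 (adjusted over all genes 0.617). The sign turned when mice were scaled to their B cell markers (0.03), a scaling that moved the median of all genes to 0.26. Relative to that median the difference of Traf3 lay between -0.29 and -0.18 over all settings tried.

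Traf2, the partner of TRAF3 in the complex (chr2:25517982-25546940, minus strand), ranged from 19.4 to 29.9 with a median of 26.0 in sham controls and from 16.7 to 25.0 with a median of 22.9 in stroke mice. All 6 stroke mice were below the sham mean, but sham control 6 was lower than all stroke mice except mouse 5. The means of 25.6 ± 3.54 and 22.3 ± 2.98 gave a log2 fold change of -0.19 (SE 0.13, limma adjusted p = 0.814), which was -0.11 without stroke mouse 5 and turned to 0.07 in the scaling to B cell markers. Relative to the median of all genes the difference of Traf2 lay between -0.25 and -0.13 over all settings tried.

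Birc3, which encodes cIAP2 (chr9:7848699-7873186, minus strand), went the other way. Sham controls ranged from 278 to 441 normalized TPM with a median of 314, and stroke mice from 356 to 408 with a median of 396. All 6 stroke mice exceeded the sham mean and 4 sham controls lay below every stroke mouse, while sham control 4 had the highest value of all. The means were 336 ± 64.7 and 391 ± 19.8 (log2 fold change 0.24, SE 0.13, 95% interval -0.04 to 0.51, limma adjusted p = 0.791, exact permutation p = 0.0606). With sample quality weights the log2 fold change was 0.12, and in the scaling to B cell markers 0.51.

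Map3k14, the gene of the kinase NIK, showed values of 27.8, 32.5 and 35.8 (lowest, median, highest) in sham controls and of 32.5, 37.8 and 39.0 in stroke mice. Of the stroke mice, 4 exceeded every sham control and all 6 exceeded the sham mean. The means were 32.2 ± 3.0 and 36.7 ± 2.44, with a log2 fold change of 0.19 (SE 0.10, 95% interval -0.03 to 0.40). The limma p was 0.0865 (adjusted p = 0.791) and the exact permutation p 0.0260 (adjusted over all genes 0.645).

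Of the transcription factor genes, Nfkb2 had, in the values as deposited, the largest log2 fold change of the 9 members tested. It also had the largest coefficient of variation among them. Sham controls ranged from 47.1 to 83.0 normalized TPM with a median of 78.6, and stroke mice from 25.9 to 65.6 with a median of 58.4. All 6 stroke mice lay below the sham mean, but sham controls 5 and 6 (61.8 and 47.1) fell within the range of the stroke mice. The means were 71.9 ± 14.5 and 54.2 ± 14.2 (SD, n = 6 each), a log2 fold change of -0.44 (SE 0.22, 95% interval -0.92 to 0.05, limma adjusted p = 0.791, exact permutation p = 0.0649). Without stroke mouse 5, whose value was 25.9, the log2 fold change was -0.24, and without sham control 6 it was -0.55. At a common total it was -0.31 beside 0.37 for Birc3, and in the scaling to B cell markers -0.17 beside 0.51.

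Relb (chr7:19606217-19629438, minus strand), the partner of the processed Nfkb2 product, had overlapping values in both groups. Its lowest, median and highest values were 26.8, 41.9 and 45.7 in sham controls and 35.1, 40.4 and 43.8 in stroke mice. The stroke mice lay within the sham range, 3 above and 3 below the sham mean. The log2 fold change was 0.05 (SE 0.14, 95% interval -0.25 to 0.35, limma adjusted p = 0.950), and it was -0.05 without sham control 6. At a common total it was 0.17 and in the scaling to B cell markers 0.32, where the median of all genes was 0.12 and 0.26.

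**Figure D3:**
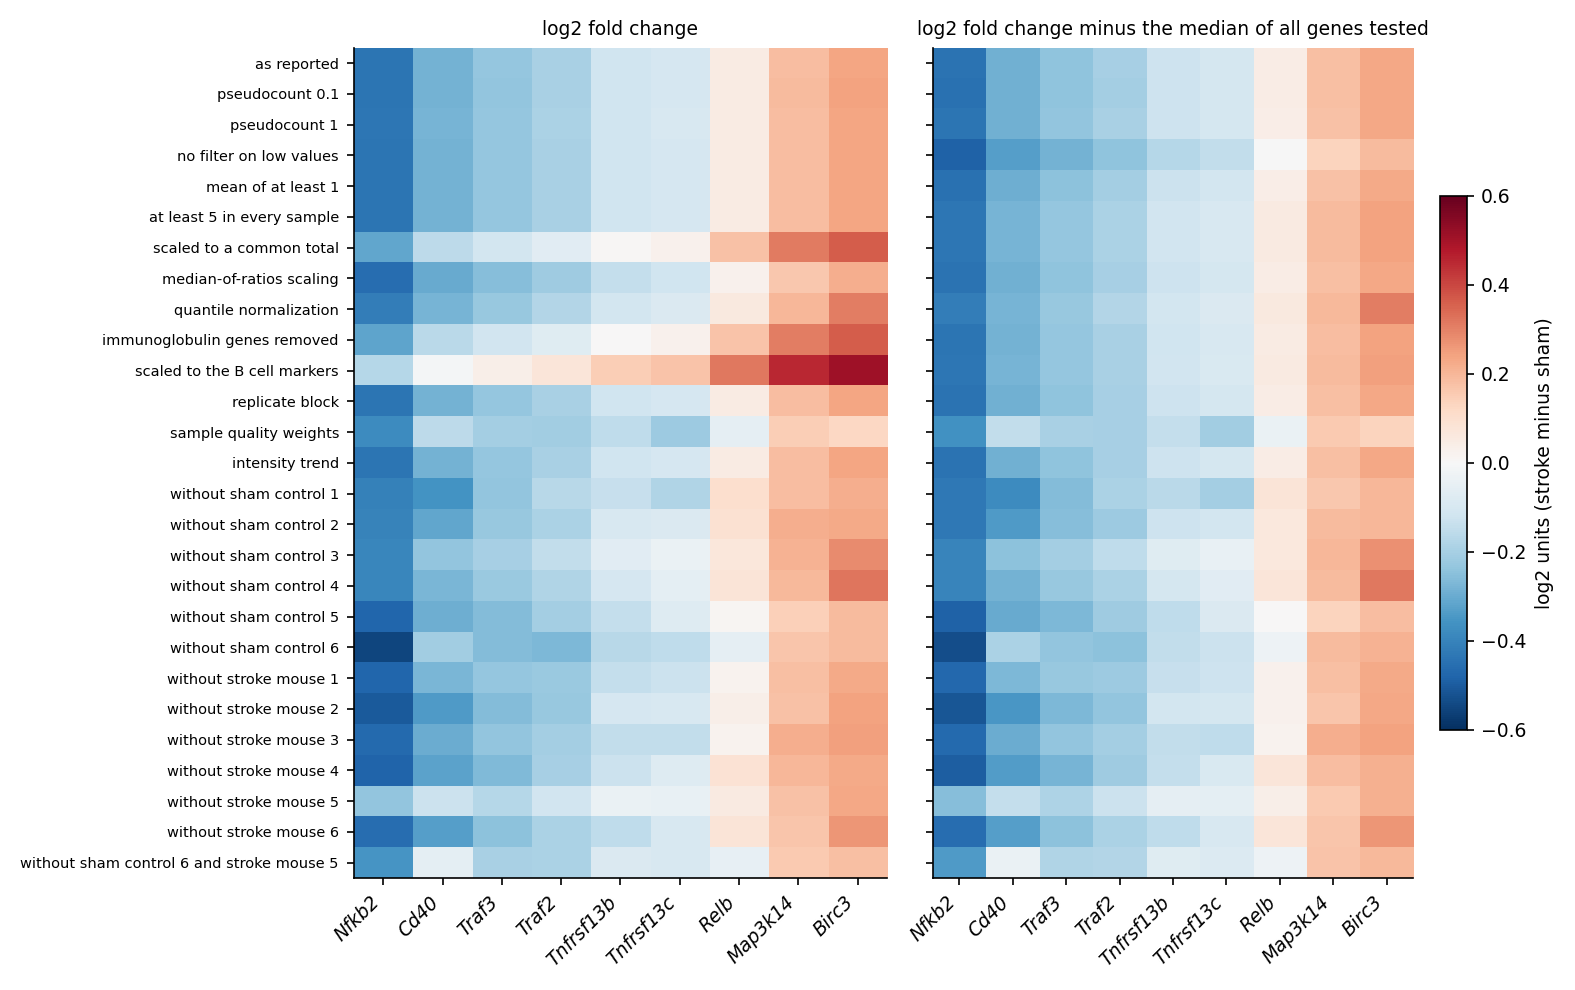
Log2 fold change of the 9 members tested (columns) under each processing alternative (lines), as fitted on the left and minus the median of all genes tested on the right, in log2 units from blue (lower in stroke mice) to red (higher). In both panels Nfkb2 and Cd40 stay below 0 and Birc3 and Map3k14 above 0 in all 26 alternatives. On the left, Tnfrsf13b, Tnfrsf13c, Traf2, Traf3 and Relb change sign in 1 to 3 of them. On the right, only Relb changes sign.

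Ratios of 2 transcripts within a mouse depend little on how its library was scaled, unless a transcript is near the pseudocount, as Tnfrsf17 was. For this reason 7 ratios of pathway partners were compared, a family chosen with earlier results of these data known, and p-values were adjusted over the 7. Map3k14 relative to Traf3, the kinase relative to the adaptor that leads it to degradation, was 0.339, 0.369, 0.322, 0.334, 0.319 and 0.347 in sham controls 1 to 6. It was 0.468, 0.429, 0.402, 0.389, 0.585 and 0.464 in stroke mice 1 to 6. The groups did not overlap, and the highest ratio was that of stroke mouse 5. The mean ratio was 1.34-fold higher in stroke mice (log2 -1.15 ± 0.212 against -1.57 ± 0.077, SD, n = 6 each). The exact two-sided permutation test gave p = 0.00216, the smallest this design allows, and an adjusted p of 0.0152. The difference was 0.35 on the log2 scale without stroke mouse 5 (exact permutation, adjusted p = 0.0152). The adjusted p was 0.0556 without both sham control 6 and stroke mouse 5 (0.35, exact permutation) and 0.219 with same-numbered mice as a block (exact sign-flip test). Both settings have few possible arrangements of the mice, and the unadjusted p was the smallest possible in each. Adjusted over the 7 ratios, it could not pass 0.05 for a ratio that leads alone, so these settings cannot decide the question.

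A ratio to Traf3 that was higher in stroke mice without overlap was found for 1.89% of the 12589 other genes tested, and Map3k14 relative to each other gene behaved that way in 1.22%. The log2 difference of 0.42 is the 0.19 of Map3k14 minus the -0.23 of Traf3, so both transcripts enter it.

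Nfkb2 relative to Nfkb1, the gene of the corresponding canonical precursor, was 0.769-fold the sham ratio in stroke mice (log2 difference -0.38). The exact permutation p was 0.0346 and, adjusted over the 7 ratios, 0.121. Stroke mouse 5 had the lowest ratio (0.253), and without it the difference was -0.21. Nfkb1 itself had 121 ± 17.3 in sham controls and 116 ± 10.8 in stroke mice.

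Relb relative to Rela was 0.24 higher on the log2 scale in stroke mice (exact permutation, adjusted p = 0.192). Rela, the main canonical activator, had 59.6 ± 14.6 in sham controls and 51.3 ± 9.31 in stroke mice. The other 4 ratios differed by less than their spread, with adjusted exact permutation p-values of 0.824 for Traf3 to Traf2 (log2 difference -0.04) and for Birc3 to Birc2 (0.07), and of 0.833 for Tnfrsf13b to Tnfrsf13c (-0.02) and for Tnfrsf17 to Tnfrsf13c (-0.11, and -0.24 or -0.05 with a pseudocount of 0.1 or 1). Birc2, which encodes the related ligase cIAP1, had 41.7 ± 1.94 and 47.2 ± 5.23, all 6 stroke mice being above the sham mean (log2 fold change 0.17, exact permutation p = 0.0130, limma p = 0.113).

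**Figure D4:**
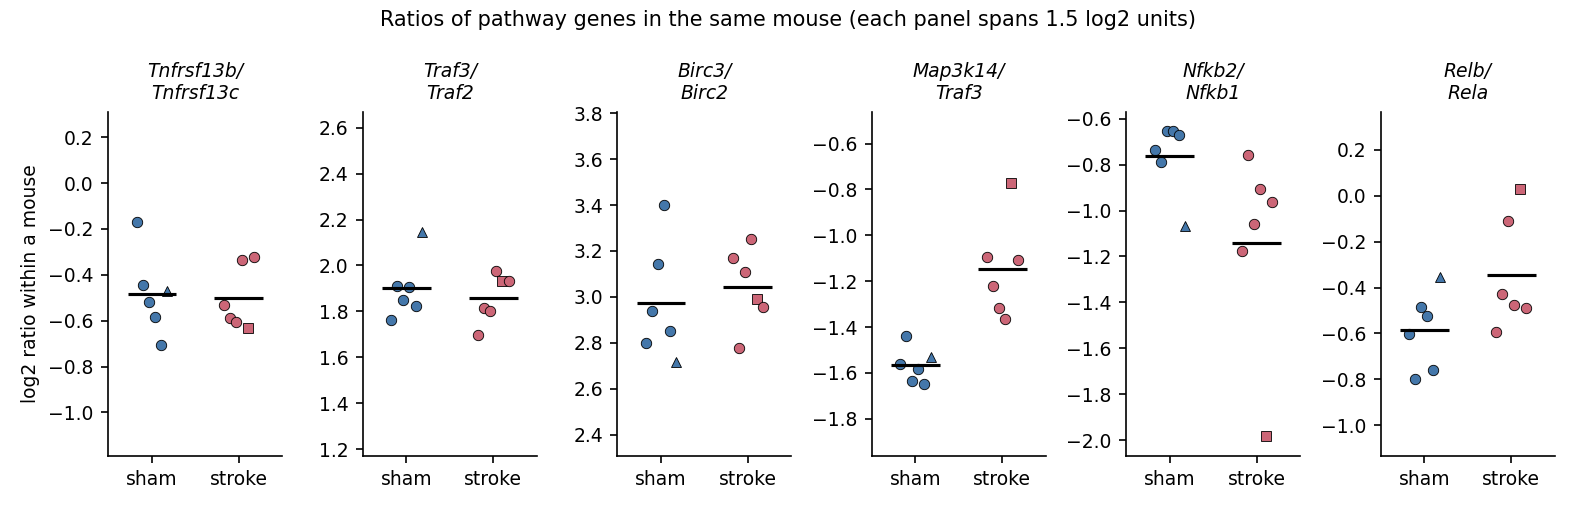
Log2 ratio of 6 pairs of pathway genes within each mouse (1 symbol per mouse, horizontal bar the mean), sham controls in blue with sham control 6 as a triangle and stroke mice in red with stroke mouse 5 as a square. Each panel spans the same 1.5 log2 units, and the groups are apart only for Map3k14 to Traf3 (sham mean -1.57, stroke mean -1.15).

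Variation among mice of the same group was examined by correlating deviations from the group means over the 12 mice, in 6 relations with Benjamini-Hochberg adjustment. Nfkb2 and Traf3 varied together, with Pearson r = 0.906 (permutation p = 0.0004, adjusted p = 0.0024) and Spearman rho = 0.846 (permutation p = 0.00214, adjusted p = 0.0128). Without the 2 mice farthest from the median of Nfkb2, stroke mouse 5 and sham control 3, r was 0.762. It was 0.824 within the 6 sham controls and 0.945 within the 6 stroke mice. The scale of a library enters both genes, and in values scaled to a common total r was 0.708 (permutation adjusted p = 0.00504). How many of all genes correlated as closely with Nfkb2 was not counted, and the closest one had r = 0.974. Whether the relation is particular to this pathway was therefore not tested.

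Map3k14 and Traf3 gave r = 0.289 (permutation p = 0.352, adjusted p = 0.352) and rho = 0.448, and r = -0.078 without sham controls 5 and 6, the mice farthest from the median of Map3k14. It was 0.822 within sham controls and -0.194 within stroke mice, a difference that was not tested, and 0.899 over all mice in values scaled to a common total (permutation adjusted p = 0.00303). For Nfkb2 and Relb, r was 0.522 (permutation p = 0.0522, adjusted p = 0.104) and rho 0.392, with r = 0.962 within sham controls and 0.118 within stroke mice, a difference that was not tested. Without stroke mouse 5 and sham control 3 it was 0.876. Nfkb2 and Birc3 gave r = 0.343 (permutation p = 0.197, adjusted p = 0.251), rho = 0.671 (permutation p = 0.0188, adjusted p = 0.0564) and r = 0.668 without the same 2 mice. Within sham controls it was 0.725 and within stroke mice -0.179.

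Tnfrsf13c correlated with the mean of the B cell markers (r = 0.636, permutation p = 0.00278, adjusted p = 0.00834), also without sham control 1 and stroke mouse 5 (r = 0.621). By rank the relation missed the threshold (rho = 0.510, permutation p = 0.0593, adjusted p = 0.119), and without stroke mouse 1 the adjusted p of r was 0.0550. Tnfrsf17 and the plasma cell markers gave r = 0.414 (permutation p = 0.209, adjusted p = 0.251), rho = 0.350 and r = 0.541 without sham controls 3 and 4.

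**Figure D5:**
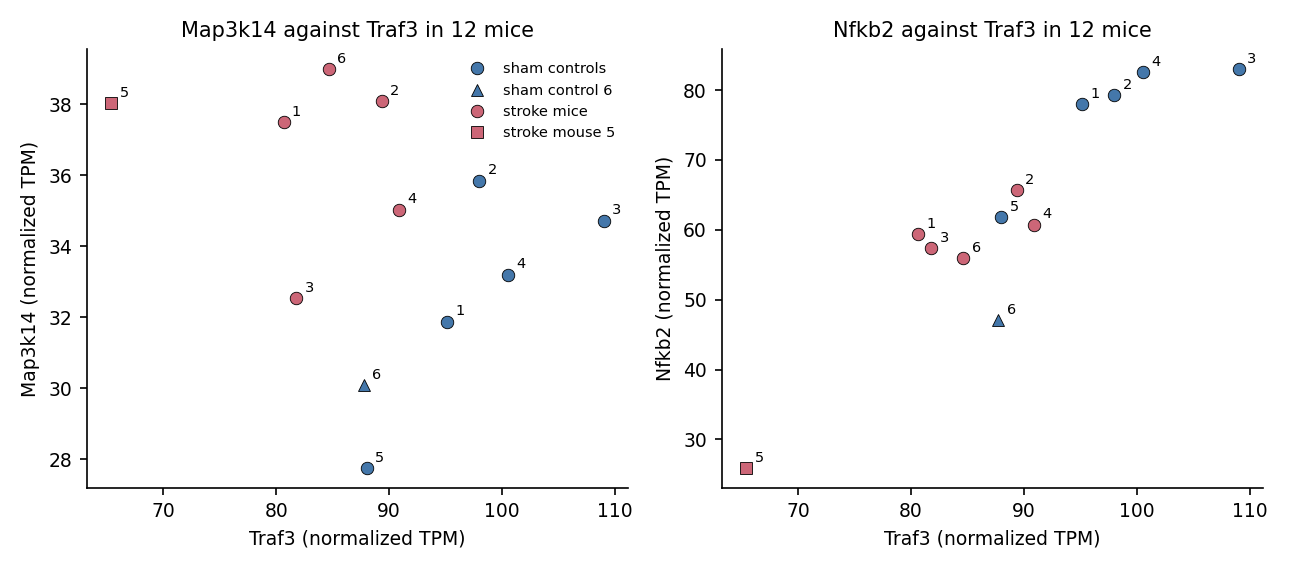
Map3k14 (left) and Nfkb2 (right) against Traf3 in normalized TPM, 1 numbered symbol per mouse, sham controls in blue and stroke mice in red. In the left panel the stroke mice lie toward the upper left of the sham controls, with a higher ratio of Map3k14 to Traf3 (0.389 to 0.585 against 0.319 to 0.369), whereas in the right panel the mice of both groups lie along one rising band (r = 0.906 after removal of group means).

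The genes whose deviations were most like those of Nfkb2 over the 12 mice included Fermt3 (r = 0.974), Cd83 (0.973), Ltb (0.966) and Dtx1 (0.965). For Tnfrsf13c they were Cmtm3 (0.900), Thap7 (0.889), Tcof1 (0.888), Usp37 (0.882) and Tprkb (0.880), and for Tnfrsf17 they were Pias3 (0.860), Ndrg1 (0.824), Naa80 (0.813), Man1b1 (0.796) and Tmem267 (0.793). These values are descriptions of the closest of 12590 genes, and mice with low values in many genes, such as stroke mouse 5, enter all of them.

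The ligands of these receptors were scarce in the isolated B cells. Tnfsf13b (BAFF) had 1.4 ± 0.741 normalized TPM in sham controls and 1.97 ± 0.617 in stroke mice (SD, n = 6 each, exact permutation p = 0.152). Tnfsf13 (APRIL) had 0.531 ± 0.572 and 0.596 ± 0.871 (exact permutation p = 0.987), and Cd40lg, the ligand of CD40, 0.517 ± 0.526 and 0.743 ± 0.705 (exact permutation p = 0.571). Of 6 ligand genes only the lymphotoxin genes Lta and Ltb entered the limma fit, and 0 passed at an unadjusted p under 0.05. Ltb had 127 ± 35.3 and 91.2 ± 32.5 with a log2 fold change of -0.52 (exact permutation p = 0.167), and Lta had one of -0.43 (exact permutation p = 0.156). Without stroke mouse 5 these were -0.25 and -0.20.

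Of 6 other receptors that signal through this pathway, 4 were tested and 0 passed at an unadjusted limma p under 0.05. The extremes were Tnfrsf4 with a log2 fold change of 0.26 (exact permutation p = 0.379) and Tnfrsf1b, which encodes a TNF receptor, with -0.37 (p = 0.323). Leaving out single mice, these ranged from 0.13 (without stroke mouse 6) to 0.42 (without stroke mouse 1) and from -0.63 (without sham control 6) to -0.23 (without sham control 1). Ltbr, the lymphotoxin beta receptor, was not tested because of low values. It was highest in sham controls 1 and 2, at 11.1 and 7.81, which also held the highest summed epithelial markers (1460 and 1433).

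All 8 other noncanonical regulators were tested, 6 with a positive and 2 with a negative difference (median log2 fold change 0.15, beside 0.0069 for all genes). At an unadjusted limma p under 0.05, 0 passed, while the exact permutation p of Birc2, which is among the 8, was under 0.05 as given above. The highest was that of Tbk1, a kinase that restrains NIK, at 0.24 (exact permutation p = 0.128, and 0.11 without stroke mouse 5), and the lowest that of Chuk, the gene of IKKα, at -0.16 (p = 0.190, and -0.08 without sham control 6). The median of the 8 was 0.09 without stroke mouse 5. It was 0.28 at a common total and 0.42 in the scaling to B cell markers, where the median of all genes was 0.12 and 0.26.

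Of 11 canonical NF-κB genes, 1 was lower at an unadjusted limma p under 0.05, where the share over all genes in that direction was 1.69%. This was Bcl10, an adaptor downstream of the B cell receptor, with 53.1 ± 7.37 in sham controls and 43.2 ± 2.49 in stroke mice (log2 fold change -0.28, SE 0.12, limma p = 0.0311, adjusted p = 0.791, exact permutation p = 0.0195). The 11 had a median log2 fold change of -0.06, with 4 positive and 7 negative values, which became 6 and 5 at a common total and 10 and 1 in the scaling to B cell markers. These scalings moved the median of all genes to 0.12 and 0.26. Set against that median, 7 of the 11 lay below it in the unscaled values and in both scalings. Without stroke mouse 5 the median was -0.11, with 2 positive and 9 negative values.

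The 10 NF-κB inhibitors had 4 positive and 6 negative differences, 0 past an unadjusted limma p of 0.05 and a median of -0.10, which was -0.05 without sham control 2 and -0.06 without stroke mouse 5. They ran from Tnip2 at 0.39 (exact permutation p = 0.0866) to Nfkbid at -0.51 (p = 0.130), which was -0.21 without stroke mouse 5. Tnip2 was 0.25 without sham control 2. At a common total 4 of the 10 were negative and in the scaling to B cell markers 2. Set against the median of all genes, 6 of the 10 lay below it in the unscaled values and in both scalings. Of 18 NF-κB target genes, 17 had a lower mean log2 level in stroke mice. The median of the 18 was -0.15, and it was -0.28 without sham control 6 and 0.0009 without stroke mouse 5. At an unadjusted limma p under 0.05, 1 of them was lower (1.69% of all genes). That was Cd83, a surface molecule of activated B cells, with 169 ± 45.2 and 110 ± 40.0 (log2 fold change -0.69, SE 0.32, limma p = 0.04998, adjusted p = 0.791, exact permutation p = 0.0498). The lowest value, 35.3, was that of stroke mouse 5, without which the log2 fold change was -0.39. Set against the median of all genes, 17 of the 18 targets lay below it, but 10 of 18 without stroke mouse 5, where 9 log2 fold changes were negative and 9 positive. Negative log2 fold changes numbered 11 in values scaled to a common total and 5 in those scaled to the B cell markers. In both scalings 17 of the 18 targets lay below the median of all genes. In none of the pathway lists was a gene called after adjustment over all genes.

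The same fit gave lower values for 2 of the 10 B cell markers at an unadjusted p under 0.05, where the share over all genes in that direction was 1.69%. The median log2 fold change of the 10 was -0.26, and -0.08 without stroke mouse 5. The 2 markers were Cr2, complement receptor CD21, with 258 ± 31.9 in sham controls and 158 ± 56.9 in stroke mice (log2 fold change -0.83, limma p = 0.0156, exact permutation p = 0.00433), and Fcer2a, the low-affinity IgE receptor CD23, with 277 ± 42.1 and 187 ± 70.4 (log2 fold change -0.72, limma p = 0.0498, exact permutation p = 0.0108). Without stroke mouse 5 these log2 fold changes were -0.51 for Cr2 and -0.36 for Fcer2a. Both genes mark mature B cells. Of the 10 markers, 7 had a negative and 3 a positive log2 fold change, which became 6 and 4 at a common total and 4 and 6 in the scaling to these markers themselves. The latter scaling evens out the mean of the 10 between mice, so signs of both kinds follow by construction. Set against the median of all genes, 7 of the 10 lay below it in the unscaled values and in both scalings. In stroke mouse 5, which was lowest for 5 members, Cr2 was 47.1 and Fcer2a 48.6. The part of these markers in the member values was not tested.

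Among the markers of other cells, Flt3 was higher at an unadjusted p under 0.05 (9.63 ± 2.08 in sham controls, 13.7 ± 1.62 in stroke mice, log2 fold change 0.50, limma p = 0.00373, exact permutation p = 0.00649), where the share over all genes in that direction was 4.42%. It was 1 of 5 tested of the 8 macrophage and dendritic cell markers, which had 2 positive and 3 negative differences and a median log2 fold change of -0.05, and of which Cd14 stayed below 1 in every mouse. That median was 0.10 without sham control 1 and 0.06 without stroke mouse 5. Of the 8 epithelial markers 4 were tested, and their median log2 fold change was -1.65 with 0 past an unadjusted limma p of 0.05. Plasma cell markers (8 of 8 tested, median -0.24), germinal centre markers (8 of 8, median 0.14), T cell markers (8 of 8, median 0.05), neutrophil markers (1 of 8) and stromal and endothelial markers (2 of 8, median -0.20) also had 0 genes past that threshold. The highest and lowest log2 fold changes were 0.20 (Prdm1) and -0.44 (Sdc1) among plasma cell markers, 0.46 (Mki67) and -0.03 (Fas) among germinal centre markers, and 0.55 (Il7r) and -0.32 (Cd3e) among T cell markers. They were -1.59 (Epcam) and -1.84 (Fabp2) among epithelial markers and -0.0050 (Pecam1) and -0.40 (Mfge8) among stromal and endothelial markers, and Cxcr2, the neutrophil marker tested, had 0.23. Single mice moved these medians. For plasma cell markers the median ranged from -0.40 (without sham control 6) to -0.06 (without stroke mouse 5). For germinal centre markers it ranged from -0.02 (without stroke mouse 3) to 0.31 (without sham control 5). For T cell markers it ranged from -0.10 (without stroke mouse 1) to 0.21 (without stroke mouse 4). With single mice left out, the epithelial median ranged from -2.48 (without sham control 6) to -1.18 (without sham control 1) and the stromal and endothelial one from -0.37 to -0.06 (the same mice); the latter was 0.06 in the scaling to the B cell markers. The single markers named varied likewise. Left out one at a time, the mice moved Cd3e from -0.64 (without stroke mouse 1) to 0.01 (without stroke mouse 4) and Fas from -0.15 (without stroke mouse 6) to 0.13 (without sham control 5). Il7r ranged from 0.38 (without sham control 5) to 0.74 (without sham control 1) and Mki67 from 0.34 (without stroke mouse 3) to 0.66 (without sham control 5). Prdm1 ranged from 0.08 (without stroke mouse 1) to 0.36 (without stroke mouse 5). Sdc1 lay between -0.69 and -0.30 and Mfge8 between -0.75 and -0.05, in both cases without sham control 6 and without sham control 1. The lowest values of Epcam and Fabp2, -2.40 and -2.80, came without sham control 6, and their highest, -1.11 and -1.28, came without sham control 2 and without stroke mouse 4. Pecam1 ranged from -0.06 (without sham control 1) to 0.02 (without sham control 3), and Cxcr2 from 0.15 (without stroke mouse 6) to 0.31 (without sham control 6). Of the neutrophil markers, 3 stayed below 1 in all mice.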

How the data were processed

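Total RNA of purified PP B cells of 12 mice was sequenced. According to the labels and the study's methods, the authors used Trimmomatic 0.39 on the reads, kallisto 0.48.0 with the GRCm38 transcripts of Ensembl release 102 for abundance, and sleuth 0.30.0. The deposited signal per gene is a normalized TPM whose column sums differ between mice (559570 to 1404340). The depth is therefore unknown, and no counts were used.

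From these values, log2(value + 0.5) of the 12590 genes with at least 1 in every mouse was fitted in limma 3.58.1 (R 4.3.3) without covariates, with Benjamini-Hochberg adjustment over all genes. Single values and 7 ratios were compared by an exact permutation test (two-sided) of the group labels, and 6 relations by 100000 permutations within groups. The labels name separate mice and give replicate numbers without saying what they stand for, and no batch is given. The study states that such data were combined from several independent experiments, which the labels do not assign to mice, so their part in the results was not tested. Alternatives covered the pseudocount (0.1 and 1), the filter, 5 scalings, a replicate block, sample weights, an intensity trend and leaving out each mouse in turn.

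Traf1, Irf4 and Fas stand in 2 lists each. The members, gene lists and tests were chosen with earlier results of these data known. Named besides the members were their ligands, ratio partners, genes of each list with an unadjusted p under 0.05 or otherwise its highest and lowest log2 fold change, and the 5 genes most like Tnfrsf17, Tnfrsf13c and Nfkb2, of which 1 is not reported here. Jchain, Ltbr and Cd14 were named after their values were seen. Gene positions are from GENCODE M21 (GRCm38, 35948 of 36175 identifiers matched) and promoter windows from RefSeq (GRCm38.p6).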

Additional observations from a re-analysis of the deposited data

Results flagged for a closer look

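In 40 groups of 6 mice (each member, ligand and ratio in each group), the gap between an extreme mouse and its nearest neighbour was compared with the group's range. The gap was unusually wide in 4 groups, where about 2 would be by chance at 1 in 20. Stroke mouse 5 had an Nfkb2 value of 25.9 normalized TPM, and the next lowest stroke mouse 56.0 (gap of 0.757 of the range). The same mouse had the lowest log2 ratio of Nfkb2 to Nfkb1, -1.98, the next being -1.18 (0.658 of the range). In sham control 6 this log2 ratio was -1.07 and in the next sham control -0.789 (0.671 of the range). Stroke mouse 1 had a Tnfsf13 value of 2.34, where the next highest stroke mouse had 0.497 (0.805 of the range).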

How the results depend on the processing

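Nfkb2 (-0.55 to -0.17) and Cd40 (-0.36 to -0.014) kept a negative and Birc3 (0.12 to 0.51) and Map3k14 (0.14 to 0.45) a positive log2 fold change in all 26 alternatives, and no member was called after adjustment over all genes in any of them (adjusted p from 0.272 to 0.999). Scaling moved the median log2 fold change of all genes to 0.12 at a common total, to 0.12 at a common total without immunoglobulin genes and to 0.26 at equal B cell markers. In that order Tnfrsf13b became 0.0074, 0.0033 and 0.15 and Tnfrsf13c 0.028, 0.024 and 0.17, while Traf2 became 0.071 and Traf3 0.033 in the scaling to B cell markers. Relb became 0.17 at a common total, 0.17 without immunoglobulin genes and 0.32 in the scaling to B cell markers. It became -0.052 with sample quality weights and ranged from -0.053 (without sham control 6) to 0.099 with single mice left out. Without both sham control 6 and stroke mouse 5, an alternative chosen after seeing the data, it was -0.048. The causes were not tested.

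Members past an unadjusted limma p of 0.05 numbered 0, but 1 with a pseudocount of 1, with at least 5 in every mouse, with median-of-ratios scaling, with an intensity trend and without both mice, 2 with no filter and when scaled to the B cell markers, 3 with quality weights, and 0 to 3 when single mice were left out (3 without sham control 6). The count over all genes was 770 of 12590 tested. It became 764 of 12590 with a pseudocount of 1, 529 of 8827 with at least 5 in every mouse and 718 of 12560 with median-of-ratios scaling. With an intensity trend it was 771 of 12590, with no filter 1768 of 31890 and with B cell marker scaling 1290 of 12507. Quality weights gave 1569 of 12590, leaving out both mice 1637 of 12792, a common total 416 of 12451 and removal of immunoglobulin genes 415 of 12336. The count ranged from 567 of 12680 (without sham control 2) to 2098 of 12661 (without sham control 6) with single mice left out. Its split into higher and lower genes was 557 and 213, and became 343 and 73 at a common total, 345 and 70 without immunoglobulin genes, 1273 and 17 with B cell marker scaling, 402 and 316 with median-of-ratios scaling, 378 and 327 with quantile normalization, 866 and 703 with quality weights, and 936 and 1162 without sham control 6. After adjustment, 1 gene instead of 0 was called with a mean of at least 1, and 0 to 1 with single mice left out (1 without sham control 1).

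Leaving out single mice, the log2 ratio of Map3k14 to Traf3 ranged from 0.35 to 0.46, Nfkb2 to Nfkb1 from -0.46 to -0.21 (adjusted p = 0.0379 without stroke mouse 2), Tnfrsf13b to Tnfrsf13c from -0.065 to 0.042, Tnfrsf17 to Tnfrsf13c from -0.38 to 0.12 Traf3 to Traf2 from -0.070 to 0.0075 and Birc3 to Birc2 from 0.017 (without sham control 6) to 0.15 (without sham control 4). Without both mice, Tnfrsf13b to Tnfrsf13c was 0.0083, Map3k14 to Traf3 0.35 and Nfkb2 to Nfkb1 -0.27, the last 2 each with an adjusted p of 0.0556 (exact permutation). Of the correlations, Nfkb2 with Relb passed 0.05 in 2 alternatives, Map3k14 with Traf3 in 1, and Tnfrsf13c with the B cell markers missed it in 1. With single mice left out, r ranged from 0.27 (without sham control 6) to 0.87 (without stroke mouse 5) for Nfkb2 with Relb, from 0.16 to 0.71 for Nfkb2 with Birc3 (the same mice) and from 0.14 (without sham control 5) to 0.63 (without stroke mouse 5) for Map3k14 with Traf3.

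Same-numbered mice did not deviate together throughout (correlations from 0.0134 to 0.494, mean 0.218 against -0.0414 for other pairs, 4 of 6 over 0.1, and 2 of 6 mice best matched by their own number), so the numbers were not taken to pair the mice. With a replicate block the count over all genes was 1174 of 12590, and 1 member, Nfkb2, passed an unadjusted p of 0.05 in limma (adjusted p = 0.513). The Map3k14 to Traf3 difference remained 0.42 by construction, with an adjusted p of 0.219 in an exact sign-flip test whose smallest p is 0.0312.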
